A study of Mus musculus with 6 samples.

Results

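Subunits of the chromatin remodelling complexes and of Polycomb were measured in uteri of female mice aged 2 weeks, in 3 Affymetrix arrays labelled Arid1a d/d and 3 labelled Arid1a f/f. The members are 54 listed genes of the SWI/SNF, ISWI, CHD and NuRD, INO80 and Polycomb complexes, and each is given by its brightest probe set among those annotated with its symbol alone. Of the 54, 49 had such a probe set, 125 probe sets in all, among 16813 genes and 41420 probe sets of the table. Smarcd3, Mbd3, Ruvbl1, Ezh2 and Cbx8 were not analysed here. The mice were intact. By usual notation f is a floxed and d a deleted Arid1a allele. The labels do not name the recombinase that deletes the allele, the cells in which it acts, the part of the gene removed or whether an array holds 1 animal. The study's title concerns gland development in the endometrium, and the comparison here asks whether the partners of Arid1a and the other remodellers differed in transcript level between the genotypes.

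Chromatin remodellers use ATP to slide, eject or exchange nucleosomes. Arid1a is a DNA-binding subunit of SWI/SNF, whose ATPase is either Smarca2 or Smarca4 and whose forms differ in their accessory subunits. ISWI complexes space nucleosomes, the CHD complex NuRD couples remodelling to histone deacetylation, and the INO80 group exchanges the histone variant H2A.Z. Polycomb works against SWI/SNF at many silenced developmental genes: its PRC2 complex methylates histone tails and its PRC1 complex ubiquitinates histones and compacts chromatin.

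All values below are log2 intensities of the deposited RMA table, and differences are d/d minus f/f, each with its standard error (SE) from limma. A gene passed when its p, adjusted over all 16813 genes by the Benjamini-Hochberg method, was under 0.05. The median over all probe sets and arrays was 2.69, and a probe set below it is called dim. In a whole uterus, fewer cells of a type and less RNA per cell cannot be told apart. Arid1a itself averaged 7.03 ± 0.045 in d/d and 7.61 ± 0.0875 in f/f uteri (SD, n = 3 each), a difference of -0.58 ± 0.086 with a limma adjusted p of 0.0260, and whether its probe set lies in the removed part of the gene is not known here. It passed in 1 of the 6 fits with 1 array left out, that without d/d 1. Leaving out any other array (d/d 2, d/d 3 or an f/f array) ended the call, with adjusted p-values of 0.0689 to 0.111, while the difference stayed between -0.62 and -0.53. Array d/d 1 stood apart from the other d/d arrays. On the axis of largest variance it lay at -11.9, against 37.2 and 28.8 for d/d 2 and d/d 3 and -29.4, -17.7 and -6.95 for the f/f arrays. Mean levels of 4 marker lists did not overlap between the genotypes. Epithelial markers (5 of 6 measured) lay at 8.60 to 8.89 in d/d and 8.05 to 8.22 in f/f arrays, and 5 endothelial markers at 6.24 to 6.74 and 6.995 to 7.14. The 6 stromal markers lay at 9.39 to 9.78 in d/d and 9.95 to 10.14 in f/f, and 4 fat markers at 4.83 to 6.12 and 6.45 to 7.17. Lists of 5 smooth muscle markers (8.38 to 8.86 in d/d and 8.73 to 8.91 in f/f), of 4 macrophage markers (5.34 to 5.61 and 5.39 to 5.48) and of 5 neuronal markers (2.46 to 2.67 and 2.58 to 2.73) overlapped. The part of these shifts in the members' values was not tested.

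None of the 49 measured members passed. Over all genes 1.14% passed, 0.63% higher and 0.512% lower in d/d uteri. The smallest adjusted p among members was 0.270, for Chd3. At an unadjusted p under 0.05 there were 3 members, Chd3 and Suz12 higher and Chd4 lower in d/d, or 6.12% against 12.2% of all genes. By brightest probe set the members' differences ran from -0.33 to 0.32, so the largest was 1.26-fold. Their median was -0.0083, against -0.0114 over all genes, with 22 members above and 27 below 0. All 49 intervals of 95% for these probe sets lay within 2-fold in either direction, and 38 lay within 1.41-fold. The 11 wider ones belonged to Smarca2, Smarca4, Actl6a, Bcl7a, Baz1a, Chd1, Ezh1, Suz12, Bmi1, Cbx2 and Cbx7, and the widest, that of Cbx7, reached -0.87. Dimmer probe sets of some members, described below, lay further out, such as a Smarca4 probe set at 0.91 (95% interval 0.48 to 1.35). In 2 members, or 4.08%, all d/d arrays lay above all f/f arrays (Chd3 and Suz12), against 7.1% of all genes. In 3, or 6.12%, all d/d arrays lay below (Smarce1, Brd9 and Chd4), against 9.42% of all genes. With 1 array left out, the one member that passed was Smarca2 without d/d 1 (adjusted p = 0.0461), in a fit where 4.88% of all genes passed.

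**Figure D1:**
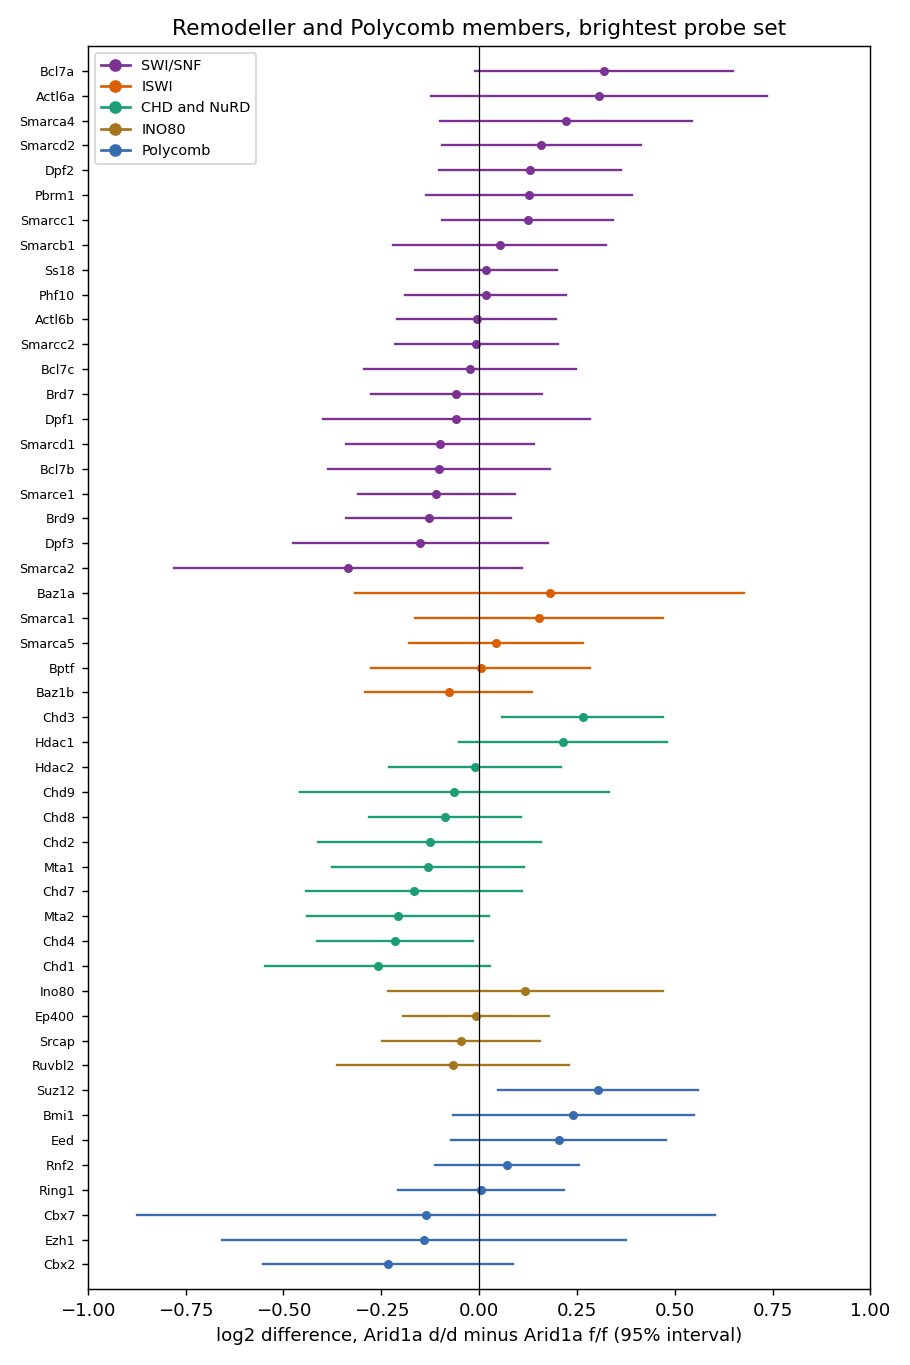
Log2 difference, Arid1a d/d minus Arid1a f/f, of the 49 measured members by their brightest probe set (point) with its 95% interval (line), grouped by complex. All points lie between -0.33 and 0.32, and the intervals of Chd3, Chd4 and Suz12 leave out 0 before adjustment.

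SWI/SNF subunits showed no common direction: of 21 measured, 0 passed, 10 were above and 11 below 0, and the median difference was -0.0066. Smarca2, the alternative ATPase also called BRM, had 8.60, 7.96 and 7.92 in d/d arrays 1, 2 and 3 and 8.68, 8.32 and 8.47 in f/f arrays 1, 2 and 3. Arrays d/d 2 and d/d 3 lay below every f/f array, while d/d 1 lay among them. The difference was -0.33 ± 0.19 (limma adjusted p = 0.576), and without d/d 1 it was -0.55. Its dimmer probe set gave -0.092. Smarca4, the ATPase BRG1, had 7.25, 7.60 and 7.50 in d/d and 7.06, 7.16 and 7.47 in f/f. The groups overlapped through f/f 3, and the difference was 0.22 ± 0.14 (adjusted p = 0.615). The dimmer probe set of Smarca4, described below, gave 0.91.

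Bcl7a, an accessory subunit, had the largest positive difference of the members by brightest probe set. It had 6.38, 6.31 and 6.05 in d/d and 6.19, 5.79 and 5.80 in f/f arrays. Its groups overlapped through d/d 3 and f/f 1 (difference 0.32 ± 0.14, limma adjusted p = 0.427). Bcl7b and Bcl7c, its paralogs, stood at -0.10 and -0.023, and Ss18, which helps hold the ATPase module, at 0.018 ± 0.078. Dimmer Ss18 probe sets gave -0.199 ± 0.091, with every d/d array below every f/f array, and -0.203 ± 0.166, with overlap. Their limma adjusted p-values over probe sets were 0.531 and 0.781. Smarce1, an HMG-box subunit of the core, had 6.86, 6.90 and 6.89 in d/d and 6.93, 6.95 and 7.11 in f/f arrays. Every d/d value was below every f/f value, by a difference of -0.11 ± 0.086 (adjusted p = 0.710). Brd9, the bromodomain subunit of the non-canonical form, also did not overlap, with 6.26, 6.41 and 6.43 in d/d and 6.47, 6.59 and 6.43 in f/f arrays. The closest arrays, d/d 3 and f/f 3, were equal to 2 decimals, and the difference was -0.13 ± 0.091 (adjusted p = 0.666).

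The rest of the core and of the form-specific subunits lay between -0.15 and 0.31 by brightest probe set. Among core subunits Smarcc1 stood at 0.12 ± 0.094 and Smarcc2 at -0.0070 ± 0.090, Smarcb1 at 0.053 ± 0.117, Smarcd1 at -0.10 and Smarcd2 at 0.16. Actl6a, the actin-related subunit of dividing cells, averaged 5.90 ± 0.29 in d/d and 5.60 ± 0.28 in f/f (SD, n = 3 each), a difference of 0.31 ± 0.19. Its neuronal counterpart Actl6b was dim in both, at 2.14 and 2.15. Of the subunits that define the PBAF form, Pbrm1 stood at 0.13, Brd7 at -0.058 and Phf10 at 0.017. The PHD-finger subunits Dpf1, Dpf2 and Dpf3 stood at -0.058, 0.13 and -0.15. Dpf1 averaged 3.00 and 3.06 and Dpf2 3.44 and 3.30, close to the dim limit.

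**Figure D2:**
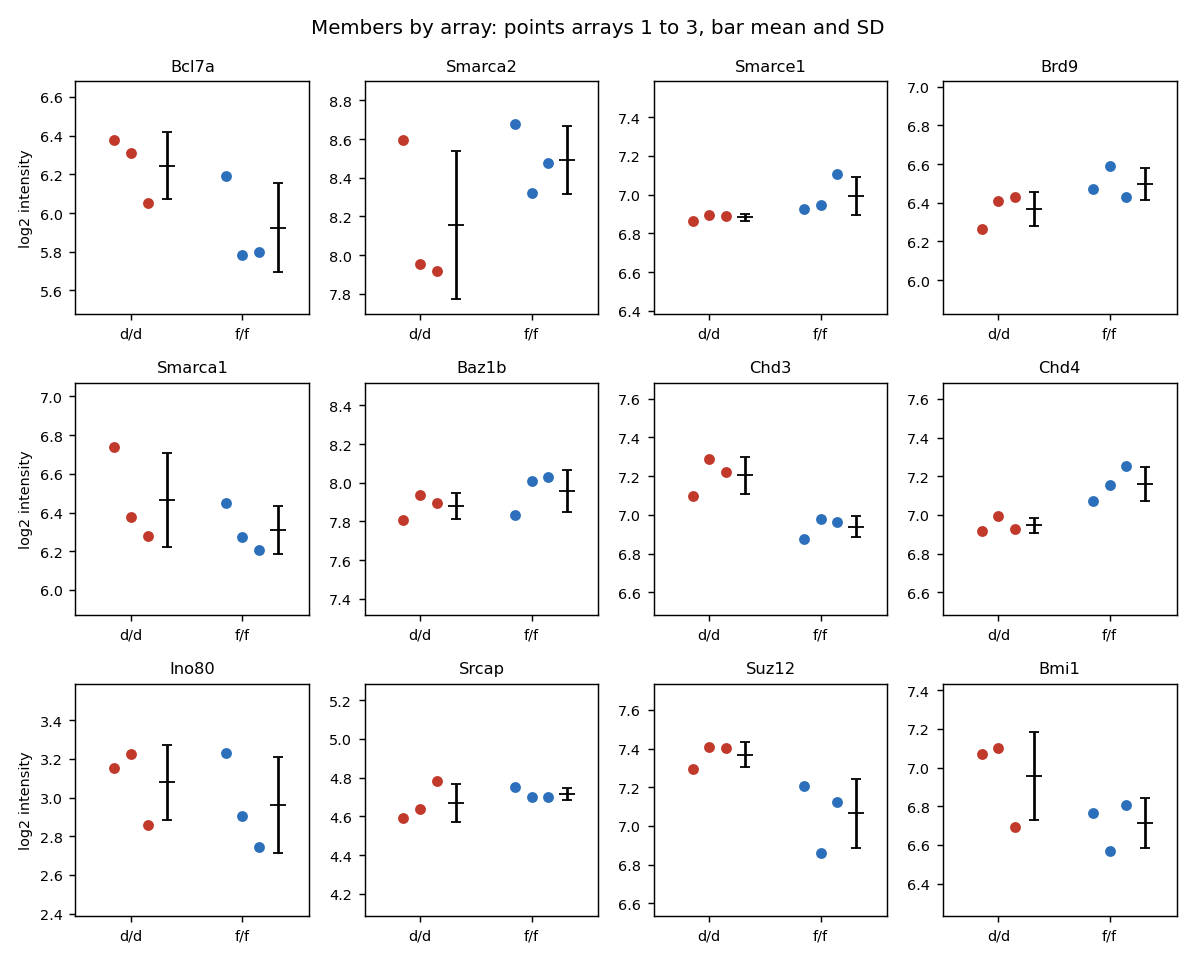
Log2 intensity of 12 members in each array: the non-overlapping members and the pair of smallest p in each complex, with d/d left of f/f, points for arrays and bars for mean and SD (n = 3). The arrays do not overlap between genotypes for Smarce1, Brd9, Chd3, Chd4 and Suz12, and array d/d 1 lies among the f/f arrays for Smarca2.

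None of the 5 ISWI genes passed, and their median difference was 0.042, or 0.14 when probe sets were averaged by gene. Smarca1, the ATPase SNF2L, had 6.74, 6.37 and 6.28 in d/d and 6.45, 6.27 and 6.21 in f/f arrays. The groups overlapped, with d/d 1 highest (0.15 ± 0.14, adjusted p = 0.751), and without d/d 1 the difference was 0.017. Smarca5, the ATPase SNF2H, stood at 0.042 ± 0.096. Its partners were Baz1a, a subunit of the ACF spacing complex, at 0.18 ± 0.21, Baz1b, the Williams syndrome transcription factor, at -0.078 ± 0.092, and Bptf, the NURF subunit that reads histone methylation, at 0.0036 ± 0.121. Baz1b had 7.81, 7.94 and 7.90 in d/d and 7.84, 8.01 and 8.03 in f/f arrays, which overlapped.

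CHD and NuRD genes held the member of smallest p, and 9 of the 11 measured were below 0 (median -0.13), with 0 past the threshold, while 53.4% of all genes were below 0. The count rests on the brightest probe sets: when probe sets were averaged by gene, 5 of the 11 were below 0 (median 0.0060). Chd3, a NuRD ATPase, had 7.10, 7.29 and 7.22 in d/d and 6.88, 6.98 and 6.96 in f/f arrays. Every d/d array was above every f/f array, with a difference of 0.26 ± 0.0885 (95% interval 0.059 to 0.47, limma adjusted p = 0.270). Chd4, the alternative NuRD ATPase, had 6.92, 6.99 and 6.93 in d/d and 7.07, 7.16 and 7.25 in f/f arrays. Here every d/d array was below every f/f array (-0.22 ± 0.0855, 95% interval -0.41 to -0.0165, adjusted p = 0.370). The other probe sets of Chd4 did not share this, at 0.021 and 0.12, and the mean of its 3 probe sets gave -0.024. Chd3 has 1 probe set.

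The NuRD deacetylases Hdac1 and Hdac2 stood at 0.21 ± 0.11 and -0.011 ± 0.095, and Mta2, a scaffold of NuRD, at -0.21 ± 0.10. Mta1, its paralog, was dim, at 1.57 and 1.70. Chd1, a remodeller of transcribed genes, averaged 4.84 ± 0.18 in d/d and 5.10 ± 0.15 in f/f (SD, n = 3 each), a difference of -0.26 ± 0.12 with an adjusted p of 0.476, and its other 3 probe sets gave 0.023, 0.082 and -0.035. Chd2 stood at -0.13, Chd8 at -0.087 and Chd9 at -0.063. When probe sets were averaged by gene these turned to 0.14, 0.077 and 0.025, and the dimmer probe set of Chd2 gave 0.40. Chd7, the gene mutated in CHARGE syndrome in humans, was dim, at 2.46 and 2.62.

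INO80-group genes had a median absolute difference of 0.0569, with 4 measured between -0.067 and 0.12 and 0 past the threshold. Ino80, the ATPase that names the complex, had 3.15, 3.22 and 2.86 in d/d and 3.23, 2.90 and 2.75 in f/f arrays, which overlapped (0.12 ± 0.15, adjusted p = 0.841). With 1 array left out its difference ranged from 0.011 without f/f 3 to 0.25 without f/f 1. Srcap, which deposits H2A.Z, had 4.59, 4.64 and 4.78 in d/d and 4.75, 4.70 and 4.70 in f/f arrays (-0.047 ± 0.087). Ep400, the ATPase of the TIP60 complex, stood at -0.0083 ± 0.0805, and Ruvbl2, an AAA ATPase shared by these complexes, at -0.067 ± 0.128.

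Of 8 measured Polycomb genes 0 passed, 5 were above and 3 below 0, and the median was 0.0375. Suz12, a PRC2 subunit needed for its methyltransferase activity, had 7.29, 7.41 and 7.40 in d/d and 7.21, 6.86 and 7.13 in f/f arrays. Every d/d array was above every f/f array, with f/f 1 closest to them (0.30 ± 0.11, 95% interval 0.049 to 0.56, limma adjusted p = 0.312). Eed, the PRC2 subunit that reads the methyl mark, stood at 0.20 ± 0.12, and Ezh1, a PRC2 methyltransferase, at -0.14 ± 0.22. In PRC1, Bmi1, a ring-finger subunit, had 7.07, 7.10 and 6.69 in d/d and 6.77, 6.57 and 6.81 in f/f arrays. Its groups overlapped through d/d 3 (0.24 ± 0.13, adjusted p = 0.557). The ubiquitin ligases Ring1 and Rnf2 stood at 0.0043 ± 0.0915 and 0.071 ± 0.079. The chromodomain subunits Cbx2 and Cbx7 stood at -0.23 ± 0.14 and -0.14 ± 0.32.

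Promoters were compared because the rule did not use sequence. Of the 49 members, 39 matched an entry in the RefSeq promoter table (GRCm38.p6, from 250 bases before to 50 after the start, first entry per gene). Of these 36, or 92.3%, were CpG-rich, with over 50% G and C and an observed to expected CpG ratio over 0.6, against 54.1% of 13342 promoters of genes on the array. Ruvbl2, Smarca1 and Smarcd2 were the exceptions. The 2 sets were not matched for level: 3 of the 49 members were dim in both genotypes, against 5672 of 16813 genes. The E2F sites TTTCCCGC or TTTGGCGC, searched on both strands, occurred in 3 member promoters, those of Brd7, Smarcd1 and Suz12, or 7.69%, against 2.49% of the 13342. These are matches of letters and no test was made of them. The 250 bases before the start are shown for Suz12, the Polycomb member of smallest p (chr11:79992856-79993105, plus strand, 37 CpG), and for Actl6b, a member that was dim in both genotypes (chr5:137553296-137553545, plus strand, 15 CpG). Capitals mark each CpG.
Suz12: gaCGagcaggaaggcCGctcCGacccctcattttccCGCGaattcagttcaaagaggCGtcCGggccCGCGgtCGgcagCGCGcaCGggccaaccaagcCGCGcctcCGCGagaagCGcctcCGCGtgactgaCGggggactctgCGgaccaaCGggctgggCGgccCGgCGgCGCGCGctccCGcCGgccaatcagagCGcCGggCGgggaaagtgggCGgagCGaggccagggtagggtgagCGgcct
Actl6b: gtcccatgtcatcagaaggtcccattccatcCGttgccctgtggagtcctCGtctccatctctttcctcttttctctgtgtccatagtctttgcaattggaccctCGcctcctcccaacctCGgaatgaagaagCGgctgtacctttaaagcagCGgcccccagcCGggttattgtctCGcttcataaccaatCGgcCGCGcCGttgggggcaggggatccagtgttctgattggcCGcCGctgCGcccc

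Probe sets of the same member differed in size and, for some members, in sign. Of the 125 member probe sets 0 passed, against 0.524% of all 41420, with a smallest adjusted p of 0.104. At an unadjusted p under 0.05, 9 were higher and 2 lower in d/d, or 7.2% and 1.6%, against 4.78% and 5.07% of all probe sets. Several of the 9 were of Suz12 alone, and probe sets of a gene are not independent. By gene 2 members were higher and 1 lower, or 6.12% together against 12.2% of all genes. The probe sets described next were chosen after their values were seen. The dimmer of the 2 Smarca4 probe sets had 5.13, 5.69 and 5.40 in d/d and 4.83, 4.19 and 4.45 in f/f arrays. All d/d arrays lay above all f/f arrays, by 0.91 ± 0.19 (limma adjusted p over probe sets 0.105), against 0.22 for the brighter one. Without d/d 1 the adjusted p was 0.0250 and the difference 1.05, and without both arrays numbered 1 they were 0.0154 and 1.22. Over all probe sets 2.34% and 1.59% passed in these fits. It passed in these 2 of 15 alternatives, and over the 15 its adjusted p reached 0.366 and its difference was as low as 0.76. The 3 Smarcc1 probe sets above the dim limit gave 0.12, 0.35 and 0.81 from brightest to dimmest. The last had 4.47, 5.01 and 4.69 in d/d and 4.07, 3.64 and 4.04 in f/f arrays, which did not overlap (0.81 ± 0.17, adjusted p = 0.104, and 0.0238 without d/d 1 or 0.0434 without both arrays numbered 1). It likewise passed in 2 of 15 alternatives, with an adjusted p of up to 0.337.

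The 4 Suz12 probe sets above the dim limit, from brightest to dimmest, gave 0.30, 0.44, 0.51 and 0.33. The one at 0.51 ± 0.13 had 6.31, 6.35 and 6.40 in d/d and 6.13, 5.62 and 5.78 in f/f arrays, with no overlap (adjusted p = 0.190). It passed in 1 of 15 alternatives, at 0.0461 without both arrays numbered 1, and its adjusted p reached 0.536. Its 2 dim probe sets gave -0.020 and 0.16. Of the Baz1b probe sets above the dim limit, 1 gave 0.56 ± 0.14 (adjusted p = 0.161), against -0.078 and -0.094 for the brighter 2. One Bptf probe set gave 0.40 ± 0.17 and another -0.26 ± 0.13, and a dimmer Smarca5 probe set gave 0.25 ± 0.10. The second probe set of Chd7, dim in both genotypes, gave -0.37 ± 0.13. When probe sets were averaged by gene, 0 of 49 passed, and the smallest adjusted p among members was 0.112, for Smarca4 at 0.57.

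**Figure D3:**
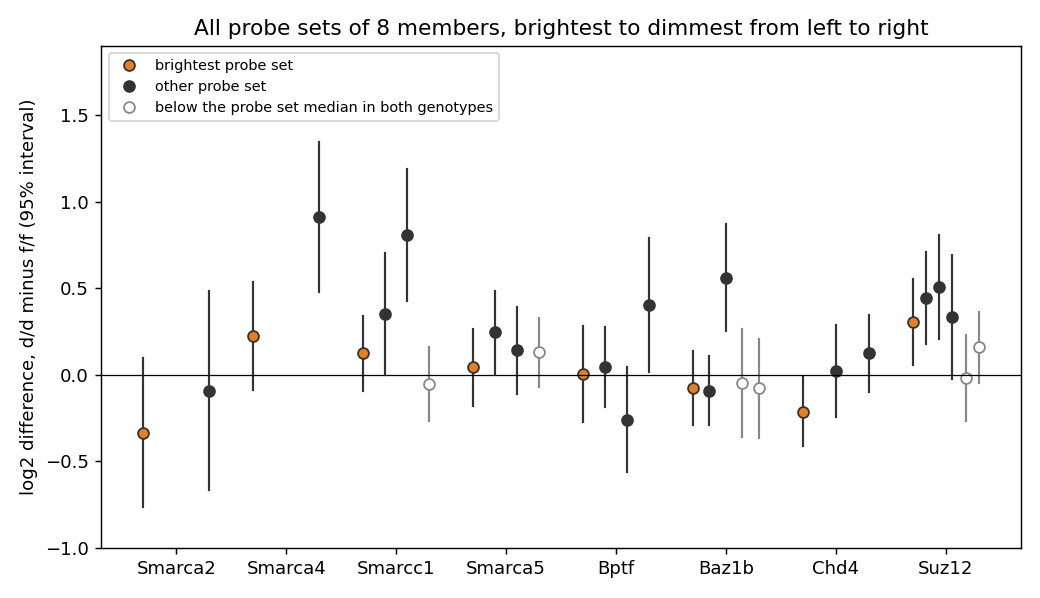
Log2 difference, d/d minus f/f, of every probe set of 8 members with its 95% interval, ordered within a member from brightest to dimmest; open points are probe sets below 2.69 in both genotypes. The dimmer probe sets of Smarca4 (0.91), Smarcc1 (0.81) and Baz1b (0.56) lie above their brightest ones (0.22, 0.12 and -0.078), and the 4 of Suz12 above 2.69 lie between 0.30 and 0.51.

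Subunits that can take the same place in a complex were compared as the ratio of a pair within each array, for 15 of 18 listed pairs. With 3 arrays a group the exact permutation test, 2-sided over 20 splits, cannot go below p = 0.1, so no pair can pass by this test and its p-values separate no pair from the rest. Arrays of the genotypes did not overlap for 3 of the 15 pairs, or 20%, against 16.5% of all genes in either direction. The latter share is of single genes, and ratios of other gene pairs were not examined. The Chd3/Chd4 ratio was 0.40, 0.52 and 0.52 above the f/f mean in d/d arrays, against 0.025, 0.044 and -0.069 in f/f arrays. That is a difference of 0.48 with SDs of 0.067 in d/d and 0.060 in f/f. With the mean of all probe sets it was 0.29. By brightest probe set Chd3 was higher and Chd4 lower without overlap, so their ratio could not overlap and repeats those results. The Hdac1/Hdac2 ratio was higher by 0.23, with 0.16, 0.25 and 0.26 in d/d and -0.10, 0.021 and 0.081 in f/f arrays. Smarcd2/Smarcd1 was higher by 0.26, mainly through d/d 2, at 0.54, and by 0.12 with the mean of all probe sets. The Smarca2/Smarca4 ratio had the largest mean shift, -0.56, or -0.78 with the mean of all probe sets. By brightest probe set its d/d arrays lay at 0.082, -0.90 and -0.85, and d/d 1 lay among the f/f arrays at 0.36, -0.10 and -0.26.

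**Figure D4:**
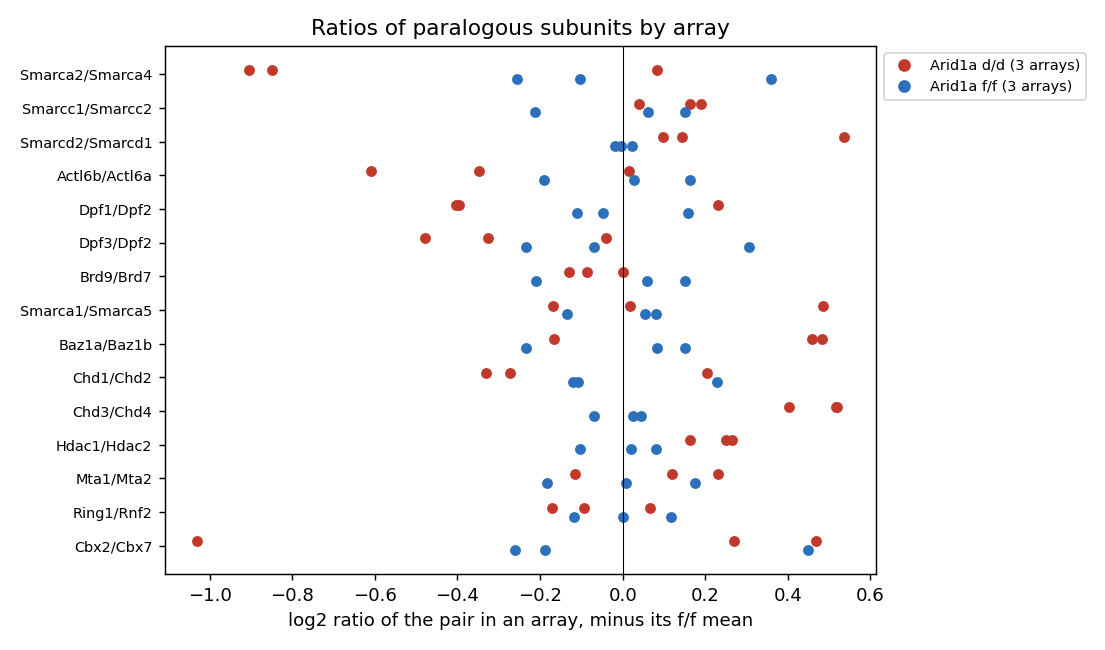
Log2 ratio of 15 pairs of paralogous subunits in each array, minus the mean of the f/f arrays, with d/d points above f/f points in each row. The d/d and f/f points are apart for Chd3/Chd4, Hdac1/Hdac2 and Smarcd2/Smarcd1, and d/d 1 lies apart from d/d 2 and d/d 3 for Smarca2/Smarca4.

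Cbx7, Ezh1, Baz1a and Actl6a, chosen after their values were seen, had wide spreads within a genotype. The mean of 11 cell cycle genes was 5.59, 7.17 and 6.91 in d/d and 5.84, 5.94 and 6.77 in f/f arrays, low in d/d 1, f/f 1 and f/f 2 and high in the others. Cbx7 had 5.74, 4.93 and 4.65 in d/d and 5.58, 5.44 and 4.70 in f/f arrays, high where the cell cycle mean was low. Ezh1 was high in the same arrays, with 7.23, 6.54 and 6.56 in d/d and 7.21, 6.97 and 6.59 in f/f arrays. Baz1a ran the other way, with 4.61, 5.39 and 5.32 in d/d and 4.89, 4.74 and 5.15 in f/f arrays, as did Actl6a, with 5.60, 6.19 and 5.92 in d/d and 5.56, 5.34 and 5.89 in f/f arrays. The difference of Baz1a was 0.43 without d/d 1 and 0.040 without d/d 2. With the cell cycle mean as a covariate the genotype difference of Baz1a was 0.0050, those of Ezh1 and Cbx7 turned to 0.043 and 0.13, and that of Smarca2 was -0.21. None of the 49 members passed in that fit. All 11 cell cycle genes had a higher mean in d/d (median difference 0.32, 0 passed). The cell cycle means overlapped between the genotypes, so the fit could hold both terms, but it rests on 6 arrays. What ties these members to the list was not tested.

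**Figure D5:**
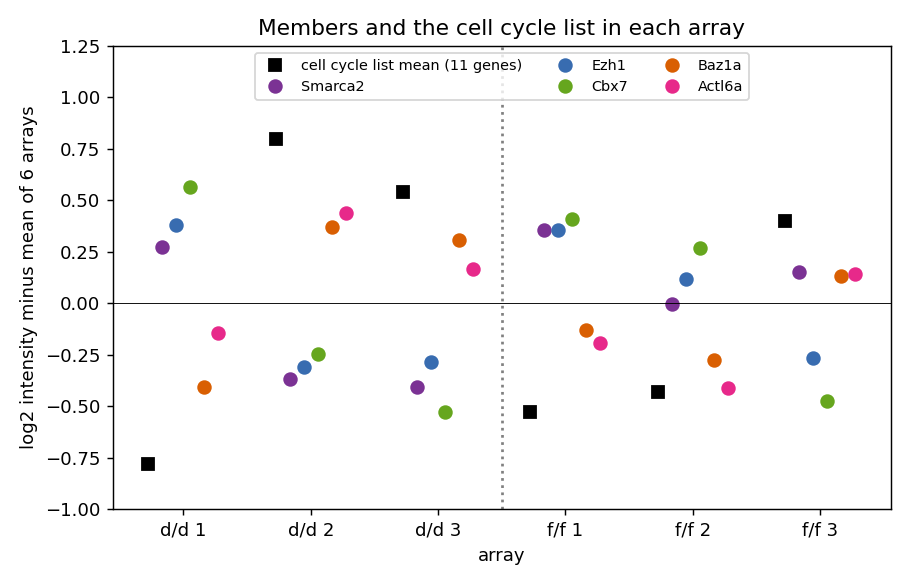
Log2 intensity of 5 members and the mean of 11 cell cycle genes (squares) in each array, minus the mean over the 6 arrays. Cbx7 and Ezh1 are high in d/d 1, f/f 1 and f/f 2, where the cell cycle mean is low, and Baz1a and Actl6a are low there.

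Further subunits of the same complexes, 81 listed and 72 measured, held 1 that rose, 1 that fell and 70 that did not pass. Their median difference was 0.0068, and over all genes 1.14% passed. The one that fell was Arid1a itself, the gene that the labels d/d mark as deleted by usual notation. The one that rose was Bcl11a, a zinc-finger protein found with SWI/SNF, at 5.13 ± 0.091 in d/d and 3.56 ± 0.22 in f/f (SD, n = 3 each; difference 1.56 ± 0.13, limma adjusted p = 0.00419), and it passed in all 6 fits with 1 array left out. Arid1b, the alternative to Arid1a in SWI/SNF, stood at 0.20 ± 0.099 (adjusted p = 0.502), and Arid2, the ARID subunit of PBAF, at -0.0052 ± 0.103. Pcgf6, a ring-finger subunit of a variant PRC1, had 6.98, 7.26 and 7.37 in d/d and 6.56, 6.59 and 6.77 in f/f arrays. These did not overlap, and the difference was 0.56 ± 0.12 with an adjusted p of 0.0934. It passed in 5 of 16 alternative settings, with 0.0159 without d/d 1. In those 5 settings 2.27% to 4.88% of all genes passed. Zmynd8, a reader protein found with NuRD, did not overlap either, at 0.37 ± 0.082 (adjusted p = 0.0957). The same held for Bcorl1, Tfpt and Yeats4, named next. Of the 72, 8.33% did not overlap and were higher in d/d, and 5.56% lower, against 7.1% and 9.42% of all genes. Bcorl1, a corepressor of variant PRC1, stood at -0.20. Cdk2ap1, a small NuRD subunit, stood at -0.22, and Tfpt, an INO80 subunit, at -0.30 ± 0.0925 (adjusted p = 0.229). Yeats4, an acyl-lysine reader of the SRCAP and TIP60 complexes, stood at 0.20, and the ISWI-group genes Cecr2 and Rsf1 at 0.28 and 0.33. Cecr2 was dim in both genotypes, at 2.20 and 1.92. Of 16 genes that Polycomb is known to silence, 11 were measured. All 11 differences lay between -0.22 and 0.14, 0 passed, and 9 genes were dim in both genotypes, among them Cdkn2a, a cell cycle inhibitor, at 1.53 and 1.75.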

How the data were processed

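Per the submitters' processing notes, RMA was used, without version or settings. Values in the deposited table are linear intensities, where log2 had been assumed, so log2 was taken first, with no added constant. RMA is known to compress differences of dim probe sets. No detection calls or scan dates were used. Of the probe sets, 31562 carried 1 symbol in the platform annotation, 830 carried several and 9028 had none. The brightest probe set by mean over the 6 arrays stands for a gene.

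The test was limma 3.58.1 under R 4.3.3 (lmFit, then eBayes, 2-sided, 4 residual degrees of freedom, no covariate), with Benjamini-Hochberg adjustment over all genes or all probe sets. The steps were tested on simulated data. There 17 of 50 genes changed 1.5-fold, the smallest change simulated, were recovered, and 42 of 50 changed 2-fold. The members, gene lists, pairs and tests were chosen with earlier results of these data known. Values in every array are given for members past the threshold, without overlap, or among the pair of smallest p in a complex. Of the further subunits, those past it, up to 2 of smallest p in a complex, and Arid1a, Arid1b and Arid2 are named. Smarca4 and the dimmer probe sets were given by array after their values were seen. Promoters are those of RefSeq GRCm38.p6. Alternatives were a replicate block, array weights, variance trend, 2 other scalings, 3 probe set rules, a cell cycle covariate and arrays left out. The number of arrays limits precision. Nothing says that arrays of a genotype are separate animals, so a p-value reflects array-to-array spread that could be technical.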

Additional observations from a re-analysis of the deposited data

How the results depend on the processing

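Among the 49 members 0 passed in each of 10 other settings and at an adjusted p under 0.10, and 0 to 1 with each array left out (higher 0 to 0, lower 0 to 1, Smarca2 without d/d 1). Arrays were treated as unpaired: correlations of deviations between arrays of 1 number were 0.461, 0.0228 and 0.178. Counts over all genes and over all probe sets moved by more than 1.5 times as follows. The replicate block gave 457 genes (217 higher, 240 lower) and 574 probe sets (295 higher, 279 lower), against 192 genes (106 higher, 86 lower) and 217 probe sets (130 higher, 87 lower). Array weights gave 381 genes (194 higher, 187 lower) and 329 probe sets (147 lower). Leaving out both arrays numbered 1 gave 540 genes (221 higher, 319 lower) and 657 probe sets (298 higher, 359 lower). The cell cycle covariate gave 427 genes (216 higher, 211 lower) and 464 probe sets (259 higher, 205 lower). An adjusted p under 0.10, a looser threshold, gave 403 genes (198 higher, 205 lower) and 462 probe sets (256 higher, 206 lower). With each array left out genes ranged from 26 to 821 (higher 16 to 328, lower 10 to 493) and probe sets from 37 to 971 (higher 21 to 410, lower 16 to 561).

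Signs that turned were all of values that passed in neither setting. They turned for Smarcb1 (-0.0282) without _x_at probe sets, for Bptf with array weights (-0.0238) and repeated quantile normalization (-0.0082), and without both arrays numbered 1 for Hdac2 (0.00821), Srcap (0.011), Ring1 (-0.014) and Arid2 (0.0114). The cell cycle covariate turned Smarcc2 (0.0148), Dpf1 (0.039), Phf10 (-0.0129), Chd9 (0.0411), Ezh1 (0.0433), Cbx7 (0.125) and Arid2 (0.0307). The mean of all probe sets turned Smarcd1 (0.00303), Brd7 (0.0419), Phf10 (-0.00121), Ss18 (-0.128), Baz1b (0.0525), Chd2 (0.138), Chd8 (0.0774), Chd9 (0.0249), Hdac2 (0.00598), Ep400 (0.0243) and Cbx7 (0.0186). With each array left out the ranges that crossed 0 were -0.0399 to 0.126 for Smarcb1, -0.0353 to 0.0416 for Smarcc2, -0.0553 to 0.047 for Actl6b, -0.1005 to 0.0135 for Brd7, -0.215 to 0.0652 for Dpf1, -0.0406 to 0.0635 for Phf10, -0.0053 to 0.0366 for Ss18, -0.104 to 0.095 for Bcl7c, -0.0155 to 0.0919 for Smarca5, -0.0762 to 0.106 for Bptf, -0.251 to 0.103 for Chd9, -0.07001 to 0.0517 for Hdac2, -0.0311 to 0.0293 for Ep400, -0.168 to 0.0231 for Ruvbl2, -0.367 to 0.003004 for Ezh1, -0.0551 to 0.052 for Ring1, -0.453 to 0.0936 for Cbx7 and -0.0678 to 0.0631 for Arid2. For ratios of pairs they were -0.177 to 0.00421 for Brd9/Brd7, -0.0752 to 0.252 for Smarca1/Smarca5, -0.0137 to 0.175 for Mta1/Mta2 and -0.38 to 0.369 for Cbx2/Cbx7. Apart from the looser threshold, the cause was not tested. Dim probe sets limit what can be seen of Actl6b, Chd7 and Mta1, and the setting without dim probe sets tested 47 members.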
